A study of Homo sapiens with 10 samples.

Results

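Long noncoding RNAs named only by their position between other genes carry LINC symbols, and 123 of them were described here in BEAS2B, a line of human bronchial epithelial cells labelled wild type. The members were chosen by their measured counts: a symbol of LINC plus a number, with counts of repeated symbols summed, had to reach 10 or more counts in at least 2 of the 10 libraries. Of 1230 LINC symbols listed, 573 had any count and 123 met this minimum, as did 14929 of all 52402 symbols. The cells were transfected with Lipofectamine 2000 and each of the 5 groups had 2 libraries. The groups received a scrambled miRNA (miRcontrol), the miR-3124-5p mimic (miR3124_mimic), the miR-200b-3p mimic (miR200b_mimic), the miR-92b inhibitor (miR92b_inhibitor), or these 3 agents together (mixed). A mimic is a synthetic duplex that adds a miRNA, and an inhibitor is an oligonucleotide that binds one. No untransfected cells were analysed here, all groups share 1 cell line, and 1 final concentration is stated for the transfections without saying whether it holds for each agent in the mixture or for their sum. Whether the libraries of a group came from separate transfections was not stated. The p-values therefore measure the spread between these libraries, which may be technical.

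Long intergenic noncoding RNAs are transcribed, spliced and polyadenylated like messenger RNAs, but most are not translated. Some act where they are made on a neighbouring gene, some bind proteins or miRNAs elsewhere in the cell, and a few turned out to hold a short reading frame for a small protein. A miRNA loaded on an Argonaute protein pairs through its seed with complementary words in RNA and lowers the stability or translation of that RNA, and cytoplasmic long noncoding RNAs can be bound in the same way. The miR-200 family is known for holding cells in an epithelial state by repressing the transcription factors ZEB1 and ZEB2.

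The mature miRNAs are shown because their seeds define the words looked for in the members. The sequences are from RefSeq (GRCh38.p14), capitals mark the seed (bases 2 to 8), and both arms of miR-92b are given because the labels name no arm for the inhibitor. The 4 seeds differ, so no pair of these miRNAs forms a seed family.
miR-3124-5p: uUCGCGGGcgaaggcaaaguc
miR-200b-3p: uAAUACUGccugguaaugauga
miR-92b-5p: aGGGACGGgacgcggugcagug
miR-92b-3p: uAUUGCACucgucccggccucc

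The libraries held 13587666 to 18503890 counts. ZEB1 fell in miR200b_mimic (log2 fold change -1.29) and in the mixed group (-1.12), as did ZEB2 (-2.27 and -1.66), while the transfected RNAs themselves were not measured. Epithelial markers were present, with KRT7, KRT8 and KRT18 at 605 to 1543 CPM (counts relative to the normalized library total), but the basal keratin KRT5 was at most 0.486 CPM, CDH1 and EPCAM stayed below 11 CPM in every library, and the airway markers SCGB1A1 and MUC5AC had no counts. These markers differed between the groups. The log2 fold changes of CDH1 and EPCAM were 6.02 and 5.08 in miR200b_mimic and 3.87 and 4.20 in the mixed group. The 8 epithelial markers summed to 2224 to 2248 CPM in miRcontrol, 2809 to 2836 in miR3124_mimic, 4136 to 4233 in miR200b_mimic, 2116 to 2174 in miR92b_inhibitor and 4109 to 4136 in the mixed group. The 5 mesenchymal markers summed to 7338 to 7391, 4516 to 4617, 4595 to 4631, 6981 to 7016 and 5033 to 5051 CPM in the same order. VIM and FN1 made up most of this sum, and single markers differed. With miR3124_mimic VIM (log2 fold change -2.225) and SNAI2 (-1.12) fell, while FN1 (0.052), CDH2 (-0.058) and ZEB1 (-0.13) moved little. SNAI2 rose with miR200b_mimic (0.91) and in the mixed group (0.52), where the other 4 fell. The epithelial KRT19 fell with miR3124_mimic (-3.40) and in the mixed group (-1.65). Of the immune markers reported here, CD14 stood 3.49 log2 units above miRcontrol in miR3124_mimic and ranged from 0.368 to 12.8 CPM over the libraries. The 3 endothelial markers summed to 3.10 to 4.82 CPM in miR3124_mimic and to at most 1.24 elsewhere, CDH5 being the largest part of the higher sum. PTPRC, CD3E, LYZ and PECAM1 were at or near 0 in every library, and the part of any of these markers in the LINC values was not tested.

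Most members were sparsely read. The libraries were made from poly(A)-selected RNA, so low counts need not mean low levels of a transcript without a poly(A) tail. Their mean level over the libraries had a median of 2.13 CPM (counts relative to the normalized library total), against 21.9 CPM over the 14884 genes tested. Of the members, 22 reached 10 CPM. Together they took 628 to 706 CPM (of the library total): the miRcontrol libraries gave 643 and 652, miR3124_mimic 638 and 633, miR200b_mimic 628 and 647, miR92b_inhibitor 690 and 706, and the mixed group 650 and 654. The 2 miR92b_inhibitor libraries lay above the other 8 libraries. LINC00674, which GENCODE v29 types as a transcribed unprocessed pseudogene, took the most reads (mean 41.4 CPM, not corrected for transcript length).

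At the margin of the minimum, 4 members reached 10 counts in exactly 2 libraries, and each did so in the libraries of 1 group. LINC00312 had 11 and 10 counts in miRcontrol, LINC00602 had 11 and 13 and LINC01094 had 12 and 11 in miR3124_mimic, and LINC01410 had 12 and 13 in miR200b_mimic. A member that enters through the group where it is high was picked for that height, so these 4 support no statement about a group. Of them only LINC01094 was called in a comparison with miRcontrol. Another 3 members met the minimum only with the help of 1 group: LINC00511 needed miR3124_mimic, LINC00470 needed miRcontrol and LINC00654 needed the mixed group. The differences of these 7 members in comparisons with the group they needed are partly set by the minimum and are given as a description. Another 18 LINC symbols reached 10 counts in a single library and stayed outside, such as LINC00473 with at most 10 and LINC01569 with at most 13 counts. All 123 members passed edgeR's filter on low counts.

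By annotation the members were a mixed class. All 123 were found in RefSeq, 94 under the same symbol and 29 under a newer one; 114 of them are typed as lncRNA, 8 as protein coding and 1 as a transcribed pseudogene (LINC01296, now DUXAP9). The coding entries include BRD3OS (LINC00094), MTLN (LINC00116), SMIM26 (LINC00493) and SMIM30 (LINC00998). RefSeq also lists LINC01279 as a synonym of CCDC80, which has a row of its own in the counts. Of the 115 found in GENCODE v29, 55 had an exon that overlaps an exon of another gene, 39 of them on the opposite strand and 26 on the same strand. The kit kept strand, but whether the counting used it is not given in the sources used here, so reads of these members and their partners may not be told apart. GENCODE types 8 members as transcribed pseudogenes (LINC00674, LINC00680, LINC00869, LINC00888, LINC01057, LINC01085, LINC01296 and LINC01881) and LINC00842 lies in a duplicated region, so near-identical copies could share reads with these 9 members and their counts are uncertain.

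Each transfected group was first compared with miRcontrol, which asks which members respond to each agent. A member was called at an adjusted p under 0.05 (quasi-likelihood F test of edgeR, Benjamini-Hochberg over all 14884 genes), and every adjusted p below is of this kind. With miR3124_mimic, 36 of 123 members were called (29.3%), against 51.0% of all genes tested: 13 were higher (25.7% of all genes) and 23 lower (25.3% of all genes), and 13 of them also passed a 2-fold change (8.13% of all genes). Of these calls, LINC01094 and LINC00511, both higher past 2-fold, met the minimum only through miR3124_mimic, which leaves 34 calls, 11 of them higher. With miR200b_mimic 27 were called against 40.6% of all genes, 13 higher (21.4%) and 14 lower (19.1%), 6 of them past 2-fold (4.88%). With miR92b_inhibitor 24 were called against 35.7%, 20 higher (17.5%) and 4 lower (18.2%), 3 of them past 2-fold (1.91%). In the mixed group 23 were called against 42.7%, 12 higher (21.5%) and 11 lower (21.1%), 6 of them past 2-fold (4.67%). These 4 comparisons share the miRcontrol libraries. In such bulk RNA, fewer cells that express a transcript and less of it per cell cannot be told apart. The miR92b_inhibitor count fell to 12 without miRcontrol replicate 2 and to 15 without miR92b_inhibitor replicate 2.

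**Figure D1:**
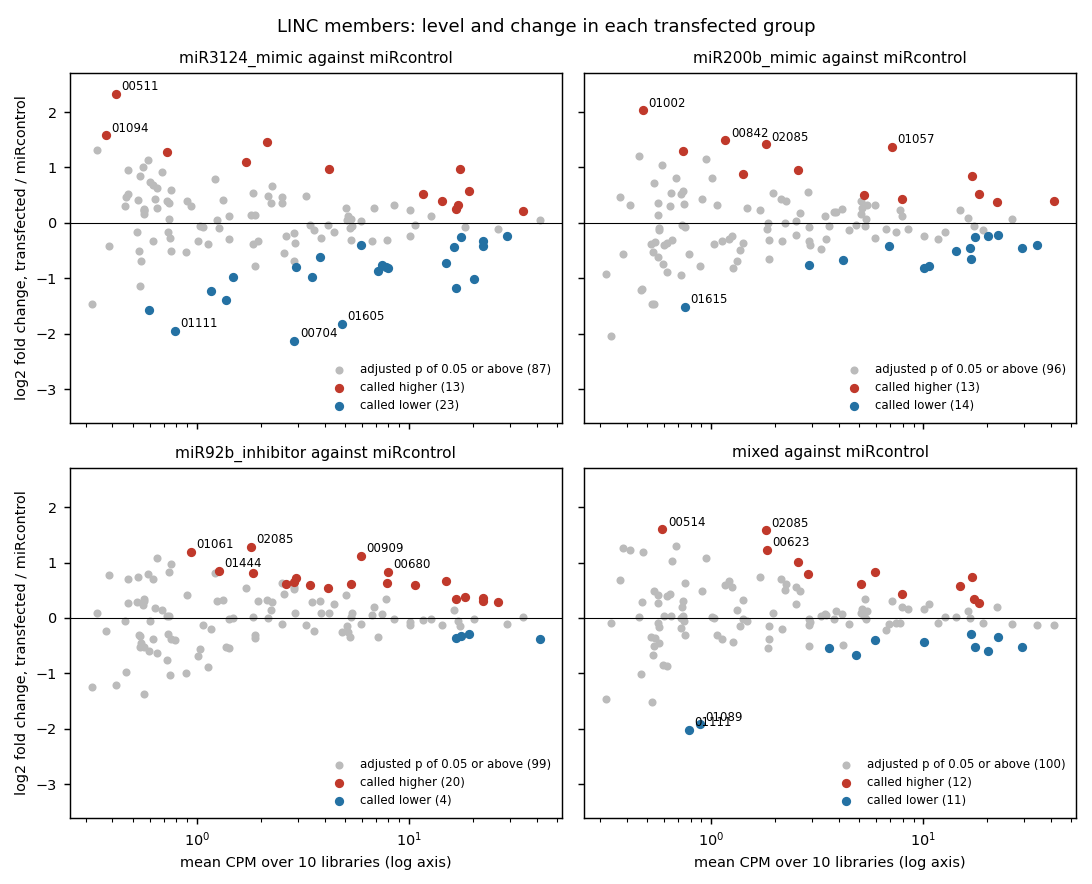
Each point is 1 of the 123 members. The x axis gives its mean CPM over the 10 libraries on a log axis and the y axis its log2 fold change against miRcontrol; red and blue points were called higher and lower, and the 5 called members with the greatest change in each panel carry their LINC number. Lower calls outnumber higher ones with miR3124_mimic (23 and 13), and higher calls outnumber lower ones with miR92b_inhibitor (20 and 4).

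The share of members called lay below the share of all genes in every comparison, and the share called rose with read level in members and in all genes. Among genes with a mean of at least 100 counts, 62.5% of 32 members and 63.3% of all genes were called with miR3124_mimic, 53.1% and 51.9% with miR200b_mimic, 43.8% and 47.3% with miR92b_inhibitor, and 40.6% and 54.5% in the mixed group. Among those with a mean of 20 to under 100 counts, 22.2%, 13.3%, 20% and 15.6% of 45 members were called in the same order, against 31.7%, 22.7%, 15.8% and 24.3% of all genes. Among the 46 members with a mean under 20 counts, 6, 4, 1 and 3 were called (13%, 8.70%, 2.17% and 6.52%), against 16.9%, 9.09%, 5.03% and 9.70% of all genes. The 6 calls with miR3124_mimic include LINC01094 and LINC00511, which met the minimum only through that group. That share is therefore partly set by the minimum. The member share was thus lower than that of all genes in 10 of these 12 pairs, by differing amounts, and these differences were not tested. The members' median absolute log2 fold change was 0.39, 0.37, 0.33 and 0.31 in the same order, against 0.29, 0.23, 0.20 and 0.23 over all genes. These medians were not split by read level, and the members were read less deeply (median 2.13 CPM, against 21.9 CPM). The difference was not tested and marks no trait of the members. Over all groups, 65 members differed in some way (F test in the same fit), against 77.0% of all genes.

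**Figure D2:**
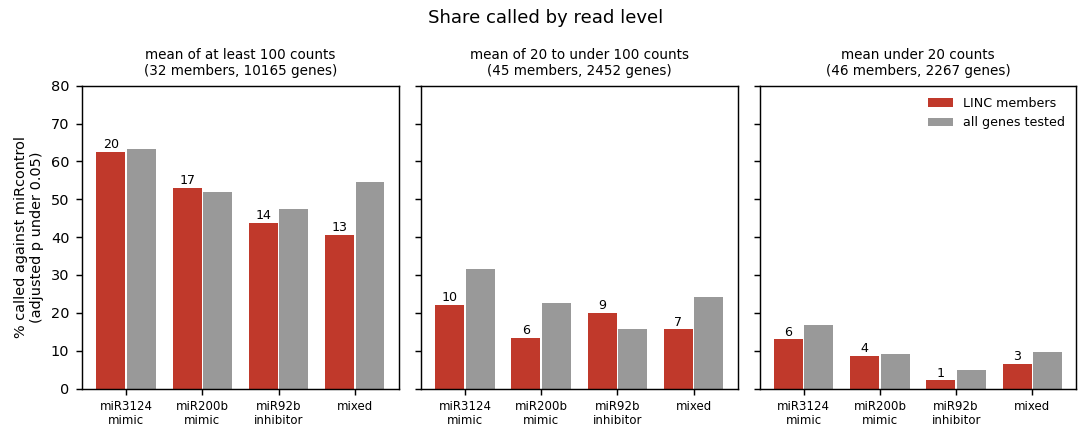
Bars give the percentage called against miRcontrol among LINC members (red, with their number above the bar) and among all genes tested (grey), for 3 ranges of mean count. In the range of at least 100 counts the paired bars are close except in the mixed group (40.6% and 54.5%).

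With the miR-3124-5p mimic, the falls called most firmly were in LINC00094, LINC00707, LINC01605 and LINC00704. LINC00704 (chr10:4650185-4678070, minus strand, GRCh38.p14 as all positions here), also called MANCR and studied for its tie to mitosis in breast cancer, had 3.43 and 3.64 CPM in miRcontrol and 0.751 and 0.849 CPM in miR3124_mimic. The groups did not overlap, and it fell by 2.13 ± 0.25 on the log2 scale (SE, adjusted p = 4.43e-08). LINC00707 (chr10:6779598-6842906), a transcript from the same chromosome arm that is studied as a promoter of lung adenocarcinoma growth, had 19.5 and 17.8 CPM in miRcontrol and 9.08 and 7.52 CPM in miR3124_mimic. It fell by 1.18 ± 0.11 (adjusted p = 1.66e-11). LINC01605 had 6.41 and 6.57 CPM in miRcontrol and 1.98 and 1.70 CPM here, a fall of 1.82 ± 0.21 (adjusted p = 2.88e-09). LINC00094 (BRD3OS, chr9:134025481-134031587, plus strand, across from the BET bromodomain gene BRD3) had 26.3 and 24.2 CPM in miRcontrol and 12.4 and 12.7 CPM here, and fell by 1.01 ± 0.09 (adjusted p = 1.72e-12). All 4 calls held when any single library was left out. LINC01111, LINC00899, LINC01560 and LINC00842 were also called lower (log2 fold changes -1.94, -1.57, -1.39 and -1.22) at 0.11 to 2.29 CPM in the libraries compared. Each of these 4 calls was lost without at least 1 library: LINC01111 without miR3124_mimic replicate 2 (-1.12), LINC01560 without replicate 1 of either group, LINC00899 without miRcontrol replicate 2 or either mimic library, and LINC00842 without any of the 4 libraries.

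Among the members that rose with miR3124_mimic, LINC01296 (DUXAP9) was at 13.9 and 14.7 CPM in miRcontrol and at 26.9 and 28.8 CPM with the mimic. The 2 groups lie far apart, with a log2 fold change of 0.96 ± 0.10 (adjusted p = 1.15e-11). LINC00294, a single-exon transcript, went from 18.2 and 18.9 CPM to 28.3 and 26.8 CPM (0.57 ± 0.09, adjusted p = 5.50e-07). LINC00467, whose RNA encodes a small protein that binds ATP synthase, went from 1.66 and 1.01 CPM to 3.41 and 3.96 CPM (1.46 ± 0.31, adjusted p = 0.000107). LINC01279 went from 4.12 and 3.64 CPM to 8.06 and 7.30 CPM (0.98 ± 0.21). CCDC80, the gene it is listed under, rose as well (0.57 ± 0.06). LINC00565 and LINC01271 were called higher at 1.09 and 1.29, the former lost without miRcontrol replicate 2 (lowest value with a library left out 0.88) and the latter lost without 3 of the 4 libraries. LINC00511, a transcript studied in lung and breast cancer, had 4 and 3 counts in miRcontrol and 16 and 18 counts with the mimic (log2 fold change 2.32), but it met the minimum through this group, so the rise is a description and supports nothing.

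With the miR-200b-3p mimic, the rise with the smallest adjusted p was in LINC01057. This transcript, now SLC44A3-AS1 (chr1:94616352-94820232), had 5.67 and 5.91 CPM in miRcontrol and 14.6 and 15.3 CPM in miR200b_mimic, a 2.59-fold rise (log2 1.37 ± 0.17, adjusted p = 6.74e-11). With miR3124_mimic it fell to 2.87 and 3.45 CPM (-0.86 ± 0.17, adjusted p = 0.000163). LINC00673, the SLNCR locus studied in melanoma and lung cancer, went from 12.6 and 13.0 CPM to 21.1 and 24.5 CPM (0.84 ± 0.10, adjusted p = 4.03e-09). LINC00842 had 2.62 and 2.36 CPM against 0.801 and 0.955 in miRcontrol (1.49 ± 0.36, adjusted p = 0.000677), the opposite side from its lower level with miR3124_mimic. LINC01123 (0.95 ± 0.26) and LINC00998 (0.52 ± 0.10) rose too and kept their calls without each library. LINC02085 (1.42), LINC01881 (1.29) and LINC01002 (2.03, at most 0.978 CPM) were called higher, but the first was lost without miRcontrol replicate 1, the second without any of the 4 libraries, and LINC01002 without miRcontrol replicate 2.

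The falls with miR200b_mimic that held without each library were all under 2-fold. LINC00839 went from 12.9 and 11.6 CPM to 6.51 and 7.42 CPM (-0.81 ± 0.14, adjusted p = 6.10e-06). LINC01293 went from 9.62 and 10.7 CPM to 5.83 and 5.98 CPM (-0.78 ± 0.13, adjusted p = 9.87e-06). LINC00342 went from 17.6 and 20.4 CPM to 13.1 and 11.2 CPM (-0.66 ± 0.11, adjusted p = 2.77e-06). No library of 1 group overlapped the other in these 3 members. LINC00641, LINC01004 and LINC01000 fell by 0.45, 0.51 and 0.41 on the log2 scale, and all 6 of these calls held without each library. LINC00704 was lower here as well (2.02 and 2.13 CPM, -0.76 ± 0.25), but this call was lost without either miR200b_mimic library or miRcontrol replicate 2 and by the DESeq2 Wald test. LINC01615 (-1.51, 4 and 5 counts with the mimic) and LINC01279 (-0.67) were called lower and lost without 1 or more libraries.

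With the miR-92b inhibitor the changes were small and mostly upward. LINC00909 (ZNF407-AS1) had 3.15 and 5.07 CPM in miRcontrol and 7.82 and 10.0 CPM with the inhibitor, a 2.18-fold rise (log2 1.13 ± 0.19, adjusted p = 1.25e-06). LINC00680, an unprocessed pseudogene in GENCODE, went from 6.98 and 7.22 CPM to 13.1 and 12.2 CPM (0.83 ± 0.16, adjusted p = 4.33e-06). LINC00958, a bladder and head and neck cancer transcript, went from 12.5 and 13.0 CPM to 19.1 and 21.2 CPM (0.66 ± 0.11, adjusted p = 1.13e-06). LINC00941, studied in SMAD4 signalling in colorectal cancer, rose by 0.63 and LINC01293 rose by 0.60. These 5 calls held without each library. LINC00704 and LINC00707 were both higher here (0.64 ± 0.25 and 0.35 ± 0.11), at 6.13 and 4.93 CPM and at 25.4 and 22.1 CPM, and both calls were lost without miR92b_inhibitor replicate 1 and without one of the control libraries. LINC02085, LINC01061 and LINC01444 were called higher (2.43-, 2.29- and 1.81-fold), and all 3 calls were lost without miR92b_inhibitor replicate 2 and without 1 control library. Only 4 members were called lower. LINC00674 had 32.7 and 30.9 CPM against 43.0 and 39.2 in miRcontrol (-0.37 ± 0.07, adjusted p = 2.99e-05) and kept its call. LINC00342 (-0.36), LINC01963 (-0.33) and LINC00294 (-0.29) lost theirs without 2 libraries each.

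In the mixed group, LINC01089, also known as LIMT, an RNA studied as an inhibitor of breast cancer cell migration, had 0.442 and 0.323 CPM against 1.32 and 1.61 in miRcontrol. It fell by 1.92 ± 0.40 (adjusted p = 0.000793). LINC01111 was at 6 and 6 counts against 27 and 19 (-2.01 ± 0.46, adjusted p = 0.00126). LINC00641 went from 35.4 and 33.9 CPM to 24.2 and 23.9 CPM (-0.53 ± 0.08, adjusted p = 1.85e-07), and LINC01963 fell by 0.51. LINC00094 was at 16.3 and 17.2 CPM and fell by 0.60. These 5 calls held without each library. LINC02085 (RDUR, an RNA induced by antiviral signalling) rose from 0.515 and 1.25 CPM to 2.21 and 3.07 CPM (1.58 ± 0.35, adjusted p = 0.000343). LINC00623 rose from 1.37 and 1.07 CPM to 2.49 and 3.28 CPM (1.23 ± 0.30). LINC00909 reached 7.02 and 7.53 CPM (0.83 ± 0.19), LINC00673 reached 21.1 and 21.4 CPM (0.73 ± 0.10, adjusted p = 7.58e-08), and LINC00958 reached 18.5 and 19.6 CPM (0.58 ± 0.11). The 5 rises were called with every single library left out. LINC00514 (1.60, 0.553 and 1.24 CPM), LINC01123 (1.01), LINC00665 (0.80), LINC01605 (-0.66) and LINC01814 (-0.53) were called as well and lost without 1 or more libraries.

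**Figure D3:**
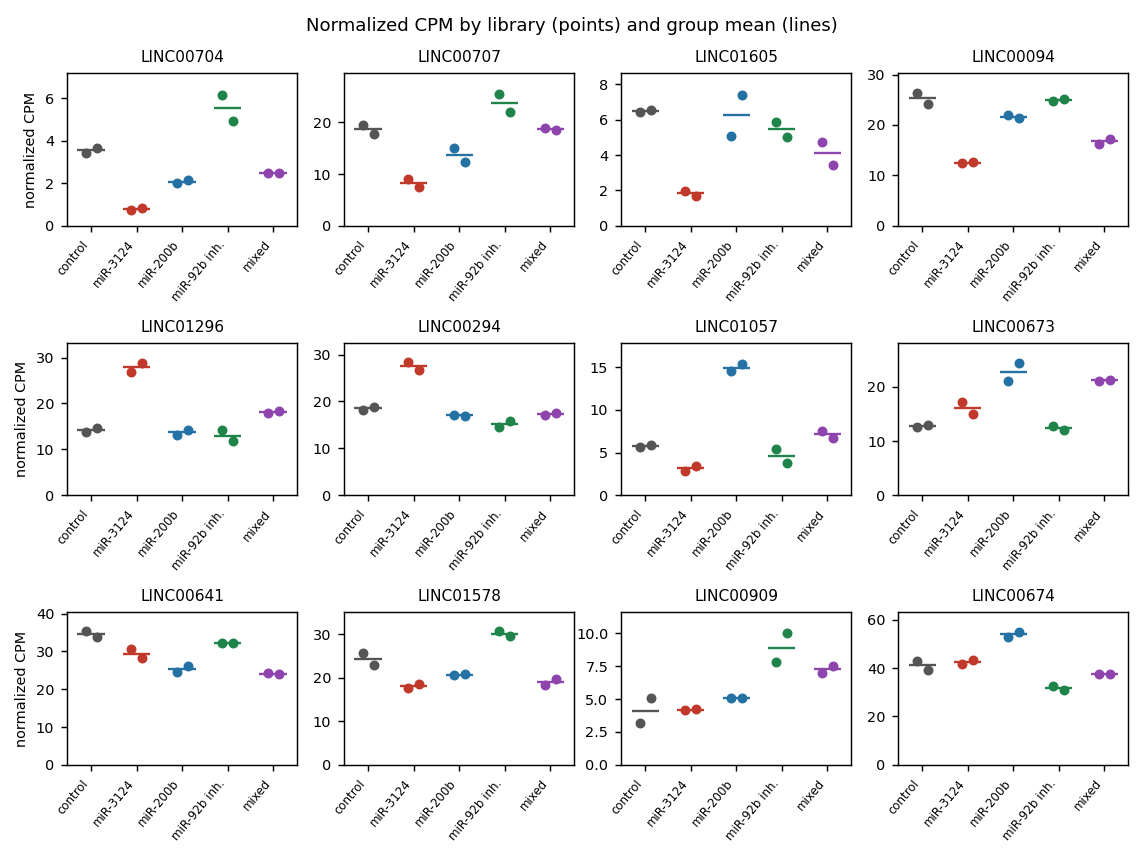
Normalized CPM (y axis, from 0) of 12 members in the 5 groups. Points are the 2 libraries of a group and lines their mean. LINC00704, LINC00707, LINC01605 and LINC00094 are lowest in miR3124_mimic, LINC01057 stands at 14.6 and 15.3 CPM in miR200b_mimic, and LINC01578 is highest in miR92b_inhibitor (30.6 and 29.6 CPM).

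The mixed group was next compared with each agent alone, which shows where the mixture differed from its parts. Against miR3124_mimic, 44 members differed, 28 higher (25.3% of all genes) and 16 lower (23.8%), and against miR200b_mimic 21 differed, 13 higher (18.2%) and 8 lower (20.4%). LINC00654, which needed the mixed group to meet the minimum, is among the higher calls in both. Without mixed replicate 2, 13 members differed from miR200b_mimic. Against miR92b_inhibitor, 23 differed, 5 higher (19.7%) and 18 lower (19.9%). These comparisons share the mixed libraries with each other and with the comparison above, and the mixed level cannot be tied to a dose because the amount of each agent in the mixture is not clear from the sources used here.

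Of the members, 6 differed between the mixed group and all 3 single transfections: LINC00094, LINC00674, LINC00707, LINC01057, LINC01293 and LINC01296. The matching count over all genes was not made, so this number marks no trait of the members. LINC00707 had 18.9 and 18.5 CPM in the mixed group, within 0.004 log2 units of miRcontrol, above miR3124_mimic (log2 difference 1.18 ± 0.11) and miR200b_mimic (0.46) and below miR92b_inhibitor (-0.34). LINC00094 had 16.3 and 17.2 CPM, 0.42 above miR3124_mimic, 0.37 below miR200b_mimic and 0.58 below miR92b_inhibitor on the log2 scale. LINC01057 had 7.58 and 6.67 CPM, 1.16 above miR3124_mimic, 1.07 below miR200b_mimic and 0.64 above miR92b_inhibitor. The mixed level thus lay between those of the agents given alone in these 3 members, as it did in the other 3. LINC01296 had 18.0 and 18.3 CPM, 0.62 below miR3124_mimic and 0.40 and 0.49 above the other two. LINC01293 had 11.8 and 12.2 CPM, 1.02 above miR200b_mimic. LINC00674 had 37.5 and 37.6 CPM, 0.53 below miR200b_mimic and 0.24 above miR92b_inhibitor. The calls of LINC00674 and LINC01293 against miR3124_mimic were lost without 3 or 4 of the libraries compared, and those of LINC00707 against miR200b_mimic and miR92b_inhibitor, and of LINC00674, LINC01057 and LINC01293 against miR92b_inhibitor, without 1 library each.

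Over the 4 comparisons with miRcontrol, 60 members were called in none, 32 in 1, 18 in 2, 10 in 3 and 3 in 4. Of the 31 called at least 2 times, 15 kept 1 direction and 16 took both. No such counts were made over all genes, so they mark no trait of the members. Of all genes, 51.0% were called with miR3124_mimic, 40.6% with miR200b_mimic, 35.7% with miR92b_inhibitor and 42.7% in the mixed group. LINC01578, LINC00342 and LINC01963 were called in all 4, the last of them lower each time. LINC00342 had 22.1 and 22.7 CPM in miR3124_mimic, above miRcontrol, and lay below it in the other 3 groups. LINC00472, a transcript studied as a tumour suppressor in breast cancer, was lower with miR3124_mimic (-0.33) and higher with miR200b_mimic (0.37) and miR92b_inhibitor (0.36), and all 3 calls held without each library.

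**Figure D4:**
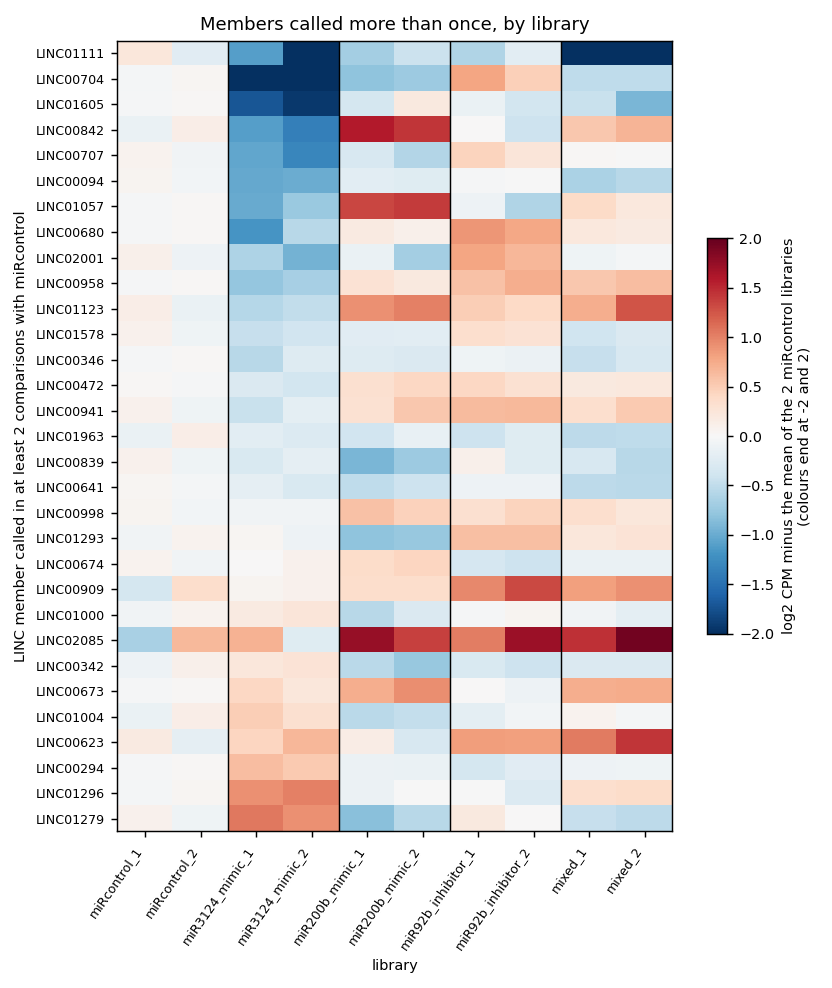
Rows are the 31 members called in at least 2 comparisons with miRcontrol, columns the 10 libraries; colour gives log2 CPM minus the mean of the 2 miRcontrol libraries, ending at -2 and 2. Rows are ordered by their value in miR3124_mimic, so that order is set by the values shown. LINC00842 and LINC01057 are blue in miR3124_mimic and red in miR200b_mimic.

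Of 6 LINC transcripts listed as known to encode a small protein, 4 were tested. None was called lower in the 4 comparisons, against 25.3%, 19.1%, 18.2% and 21.1% of all genes. The list leaves out other members that RefSeq types as protein coding. Of these, LINC00094 was called lower with miR3124_mimic, with miR200b_mimic and in the mixed group. LINC00514 was called higher in the mixed group, and LINC01279 was called in both directions. LINC00998 (SMIM30, a membrane microprotein) had 16.2 and 15.0 CPM in miRcontrol and 14.8 and 14.8 with miR3124_mimic. It reached 23.3 and 21.5 CPM with miR200b_mimic, 19.4 and 21.2 with miR92b_inhibitor, and 19.6 and 18.2 in the mixed group. It was called higher in the last 3 groups (0.52, 0.38 and 0.28), the mixed one being lost without mixed replicate 1 or miRcontrol replicate 2. LINC00493 (SMIM26, a mitochondrial microprotein) was called higher with miR92b_inhibitor only (0.29 ± 0.08, adjusted p = 0.00321, lost without replicate 2 of either group). LINC00116 (mitoregulin) had no call, with log2 fold changes of -0.30 to 0.067, and LINC00467 was called with miR3124_mimic.

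Of 20 LINC transcripts listed as studied in lung or other carcinoma, 11 were tested. LINC00511 and LINC00312 met the minimum through 1 group, and the counts and medians given here are over the other 9. With miR3124_mimic LINC00673 was higher and 4 were lower (LINC00707, LINC00472, LINC01116 and LINC00346), against 25.7% and 25.3% of all genes. The median log2 fold change was -0.33. LINC00511 was called higher too, but it needed this group to meet the minimum and is left out of the count. With miR200b_mimic 3 were higher and 1 lower (21.4% and 19.1% of all genes, median 0.27), with miR92b_inhibitor 4 were higher and none lower (17.5% and 18.2% of all genes, median 0.35), and in the mixed group 3 were higher and 1 lower (21.5% and 21.1% of all genes, median 0.20). The medians over all genes lay within 0.01 of 0. LINC00662, called higher with miR92b_inhibitor (0.62), lost this call without any of the 4 libraries, as LINC00346 did in the mixed group (-0.39). With miR3124_mimic, the calls of LINC01116 (-0.62) and LINC00346 (-0.39) were lost without 3 of the libraries and that of LINC00673 (0.32) without 2. LINC00963 (-0.25 to 0.27) had no call, nor had LINC00312.

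For reference, 25 of 30 listed long noncoding RNAs without a LINC symbol were tested. They had 4 higher and 10 lower calls with miR3124_mimic (25.7% and 25.3% of all genes), 7 and 5 with miR200b_mimic (21.4% and 19.1%), 9 and 2 with miR92b_inhibitor (17.5% and 18.2%), and 7 and 3 in the mixed group (21.5% and 21.1%). NEAT1, the scaffold of paraspeckles, was lower with miR3124_mimic (-0.76) and higher with miR92b_inhibitor (0.36). The difference between the groups was not tested.

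Seed words were then sought in the longest GENCODE v29 transcript of each of 115 members. The words are CCCGCGA for miR-3124-5p, CAGTATT for miR-200b-3p, CCGTCCC for miR-92b-5p and GTGCAAT for miR-92b-3p, on the transcript's own strand. They occurred in 5, 18, 6 and 16 members (4.35%, 15.7%, 5.22% and 13.9%), against 1.5%, 7.49%, 3.39% and 7.09% of 16066 lncRNA genes, whose transcripts are shorter (median 704 bases, against 2347 bases in members). Of the 18 members with the miR-200b-3p word, 3 were called lower and none higher with miR200b_mimic, against 19.1% and 21.4% of all genes, with a median log2 fold change of -0.23. Of the 97 without it, 10 were lower and 12 higher, with a median of -0.0095. In the mixed group 3 of the 18 were called lower and none higher (median -0.10), against 21.1% and 21.5% of all genes. Of the 5 members with the miR-3124-5p word, only LINC00094 was called with miR3124_mimic, against 51.0% of all genes. The other 4 ranged from -0.37 to 0.85 with no call. No member with either miR-92b word was called with miR92b_inhibitor, against 35.7% of all genes. Of the 109 members without the miR-92b-5p word, 4 were lower and 18 higher, as were 4 and 18 of the 99 without the miR-92b-3p word. These differences were not tested.

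The words in the 3 members called lower with miR200b_mimic are shown with 11 bases on either side (GENCODE v29, GRCh38), the word in capitals. LINC00094 and LINC01011 are the members that hold the words of both mimics, and LINC01011 had no call with either (log2 fold changes 0.85 with miR3124_mimic and 0.73 with miR200b_mimic).
LINC00094, miR-3124-5p word: catctccgaggCCCGCGAcgagcggggcc
LINC00094, miR-200b-3p word: aagcattatgcCAGTATTaaggaacagtg
LINC00641, miR-200b-3p word: ggactgaccctCAGTATTtttcctttgag
LINC00641, second miR-200b-3p word: actgttgtataCAGTATTgaattgtataa
LINC01578, miR-200b-3p word: tttgggaaagtCAGTATTttatatagcaa

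LINC00641, with a pair of words, had 24.5 and 26.1 CPM in miR200b_mimic and 35.4 and 33.9 CPM in miRcontrol (-0.45 ± 0.08, adjusted p = 5.62e-06). LINC00641 was also called lower with miR3124_mimic (log2 fold change -0.24, adjusted p = 0.00659), although its transcript holds no word of that mimic. In miR200b_mimic, LINC00094 (21.9 and 21.3 CPM, -0.23 ± 0.09, adjusted p = 0.0366) and LINC01578 (20.6 and 20.8 CPM, -0.22 ± 0.09, adjusted p = 0.0420) moved little. Their calls were lost by the DESeq2 Wald test, without the filter on low counts and without some single libraries, and that of LINC01578 also with TMM normalization. A match is a description of letters, and binding was not measured.

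Promoters were compared through RefSeq, which gave 250 bases before to 50 after the start for 96 members. Both strands were counted. The word TGANTCA, a loose form of the AP-1 motif in which N is any base, was present in 12 of them (12.5%, against 7.71% of 35116 promoters). The ZEB E-box CAGGTG was present in 25 (26.0%, against 20.6%) and the TATA word TATAAA in 11 (11.5%, against 11.5%). The promoter of LINC00704 (MANCR), the member with the greatest fall in miR3124_mimic, is shown because it holds 2 matches to TGANTCA, in capitals (GRCh38.p14, chr10:4678021-4678320, minus strand, written 5′ to 3′). No factor's binding was measured here.
LINC00704 promoter: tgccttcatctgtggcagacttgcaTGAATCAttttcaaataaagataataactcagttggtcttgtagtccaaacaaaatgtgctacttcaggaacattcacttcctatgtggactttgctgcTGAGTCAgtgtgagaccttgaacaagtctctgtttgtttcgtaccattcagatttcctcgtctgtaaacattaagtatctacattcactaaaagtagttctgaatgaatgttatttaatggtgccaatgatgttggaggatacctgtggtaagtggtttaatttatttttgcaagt

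Some LINC transcripts act on the gene beside them, so 49 members with a tested coding gene within 10000 bases were paired with it. Among the 49, 15 members and 24 neighbours were called with miR3124_mimic, 7 and 20 with miR200b_mimic, 6 and 15 with miR92b_inhibitor, and 8 and 24 in the mixed group. Of all genes tested, 51.0%, 40.6%, 35.7% and 42.7% were called in the same order. Both partners were called in 10 pairs with miR3124_mimic, 4 with miR200b_mimic, 2 with miR92b_inhibitor and 6 in the mixed group. They moved in the same direction in 4, 3, 1 and 2 of these pairs and in opposite directions in 6, 1, 1 and 4. Pairs of other neighbouring genes were not counted for comparison.

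LINC01578 (CHASERR, chr15:92882843-92898747, plus strand) lies 1577 bases from CHD2, a chromatin remodeller whose level it is known to restrain. LINC01578 had 25.6 and 22.9 CPM in miRcontrol, 17.6 and 18.5 with miR3124_mimic and 20.6 and 20.8 with miR200b_mimic. With miR92b_inhibitor it had 30.6 and 29.6 CPM, and the mixed libraries had 18.4 and 19.7. Its level was below miRcontrol in the 3 groups that received a mimic and above it with the inhibitor alone, where the call was lost without miRcontrol replicate 2. In the mixed group (-0.35 ± 0.09) the call was lost without miRcontrol replicate 1, and with miR3124_mimic (-0.42 ± 0.09) it held. With miR200b_mimic (-0.22) the call was lost by the DESeq2 Wald test, with TMM normalization, without the filter on low counts and without some single libraries. CHD2 rose from 141 ± 2.52 CPM (SD, n = 2) in miRcontrol to 166 ± 0.551 with miR3124_mimic (log2 0.24 ± 0.05), to 153 ± 11.3 with miR200b_mimic (0.12 ± 0.05) and to 175 ± 3.76 in the mixed group (0.31 ± 0.05). With miR92b_inhibitor it stood at 144 ± 1.98 CPM (0.029, adjusted p = 0.664). The partners thus moved in opposite directions in the 3 groups that received a mimic, with the smallest changes in miR200b_mimic, and CHD2 had no call with the inhibitor. These comparisons share the miRcontrol libraries and the mixture holds both mimics, so they are not independent.

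LINC00094 overlaps BRD3 on the opposite strand. BRD3 rose with miR3124_mimic (0.24 ± 0.07), where LINC00094 fell by 1.01, and fell with miR200b_mimic (-0.24) and in the mixed group (-0.36), where LINC00094 was also lower. With miR92b_inhibitor BRD3 fell by 0.50 while LINC00094 stood at 24.9 and 25.1 CPM (-0.019, adjusted p = 0.895). LINC01057 starts 125 bases from SLC44A3, a choline transporter-like gene. SLC44A3 rose from 0.760 ± 0.022 CPM to 2.38 ± 0.560 with miR3124_mimic, where LINC01057 fell, to 2.12 ± 0.252 with miR200b_mimic, where LINC01057 rose, and to 2.67 ± 0.334 CPM in the mixed group, where LINC01057 was not called (0.30). LINC00909 rose with miR92b_inhibitor and in the mixed group, and ZNF407, 35 bases away, fell by 0.19 and 0.27.

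**Figure D5:**
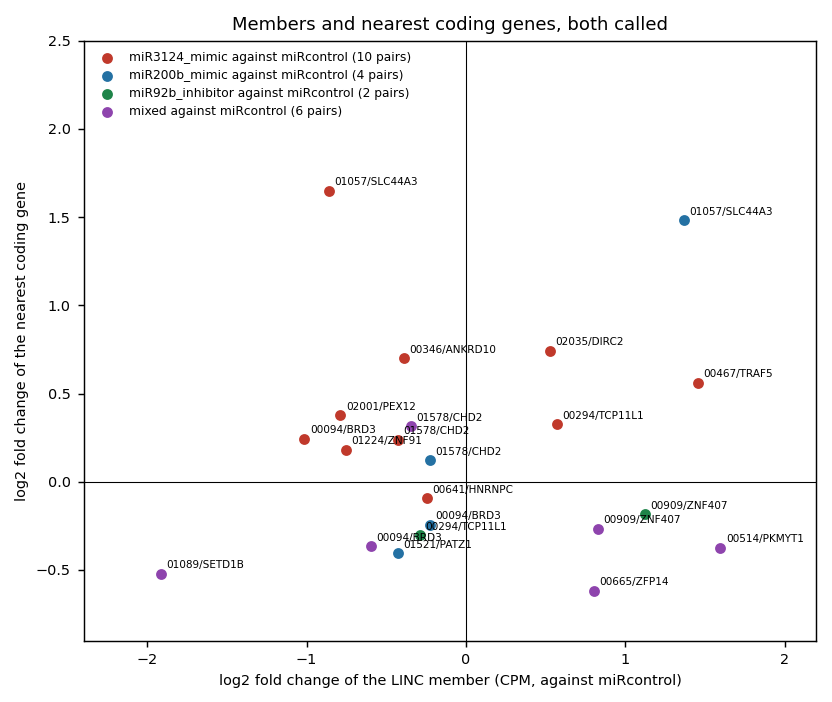
Each point is a member and its nearest coding gene within 10000 bases, shown where both were called in that comparison. The x axis gives the log2 fold change of the member and the y axis that of its neighbour, both against miRcontrol. LINC01578/CHD2 appears 3 times in the upper left, and LINC00094/BRD3 appears at the left both above and below 0.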

How the data were processed

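RNA from the transfected cells was measured by RNA sequencing. The mRNA was isolated with a poly(A) selection kit, and libraries were made with the NEBNext Ultra II Directional kit. The authors mapped reads with TopHat to GRCh38 (submitters' processing notes). The annotation, the counting tool and its strand setting are not given in the sources used here. The deposited values are raw counts per gene, without normalization. Each of 10 libraries listed 58173 rows, of which 5771 repeated a symbol and were summed. A marker gene is not reported here. The members and gene lists were chosen with earlier results of these data known.

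All 10 libraries were fitted together (5 residual degrees of freedom) in edgeR 4.0.16 under R 4.3.3, normalized by RLE after filterByExpr and tested by quasi-likelihood; p-values were adjusted by Benjamini-Hochberg over 14884 genes. CPM are normalized. Library totals of 13587666 to 18503890 counts set the precision; over all genes, replicate libraries differed by 1.77 to 2.76 times the sampling variance (chi-square per degree of freedom), so none was a duplicate; over the members alone this was 1.13 to 1.89. Standard errors (±) of log2 fold changes come from limma 3.58.1 on log2 CPM and are a description. Members named were the 10 with the highest mean CPM; in each comparison with miRcontrol the 5 called members that rose most and the 5 that fell most, with a mean of at least 0.5 CPM and libraries that did not overlap; those called in all 4 comparisons or between the mixed group and all 3 single transfections; and members of the lists. LINC00470, LINC00602, LINC00654, LINC00958, LINC01002, LINC01004, LINC01011, LINC01094, LINC01410 and LINC01569 were named after their values were seen. In simulated counts for miR3124_mimic against miRcontrol, 78 of 100 genes changed 2-fold and 93 of 100 changed 4-fold were recovered among 14884, with 10 false calls. The changed genes were drawn from all read levels and were far fewer than those called in the data. These figures therefore do not give the recovery among the members. Alternatives were TMM, library totals only, DESeq2 1.42.0, a fit of the 2 groups compared, other filters, a replicate block, leaving out each library, and members without exon overlap or with 20 or more counts; those of the F test, members that meet the minimum without any 1 of the groups compared, and members in GENCODE without exon overlap were added after the data were seen.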

Additional observations from a re-analysis of the deposited data

How the results depend on the processing

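For the 88 called log2 fold changes of named members, 1036 values were computed under an alternative and none reversed in sign; 882 stayed on their side of the threshold and 154 lost their call: 107 without a single library, 29 by the DESeq2 Wald test, 9 without a filter, 4 with library totals, 2 with TMM, 2 with 10 counts in every library and 1 with only the groups compared. Of 144 counts of members, 106 stayed within 1.5 times. By the DESeq2 Wald test 15 members were called with miR200b_mimic, 14 with miR92b_inhibitor, and 29, 10 and 13 between the mixed group and miR3124_mimic, miR200b_mimic and miR92b_inhibitor; its filter on low means left 97, 76, 123, 85 and 97 members with an adjusted p. Among the 68 members with no exon overlap found, 8 of which are not in GENCODE and were not assessed, 20, 16, 10 and 12 were called against miRcontrol in the order of the report, and 24, 13 and 10 in the comparisons of the mixed group with single agents. Among the other 60 these counts were 18, 14, 8 and 11, and 22, 12 and 9. Without members that need 1 of the groups compared to meet the minimum they were 34, 27, 24 and 23, and 43, 20 and 23. Past a 2-fold change, 13, 6, 3 and 6, and 18, 5 and 5 were called by adjusted p, and 15, 10, 4 and 10, and 21, 8 and 6 by unadjusted p. These last sets are smaller by construction.

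With single libraries left out (an arm of 1 library is then assumed to vary like the others), 25 to 28 members were called with miR3124_mimic, 19 to 22 with miR200b_mimic, 12 to 19 with miR92b_inhibitor, 17 to 20 in the mixed group, and 30 to 33, 13 to 14 and 16 to 19 between the mixed group and the single agents. Calls kept without each library numbered 19 of 36, 13 of 27, 9 of 24 and 11 of 23. With the most-read member left out, the members' share was 576 to 675 CPM. The replicate numbers in the labels do not pair the libraries: the change from replicate 1 to replicate 2 in 1 group had correlations of -0.038 to 0.057 with that in another, across 11204 genes. With a replicate block 37, 27, 24 and 23 members were called against miRcontrol, and 43, 21 and 22 in the comparisons of the mixed group. Depth limits the 46 members with a mean under 20 counts, and with 2 libraries a group a call missed does not show that levels were alike.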
